A study of Rattus norvegicus with 24 samples.

Results

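The genes described here are 10 markers of radial glia and cortical stem cells, namely Pax6, Sox2, Lhx2, Hopx, Hes1, Hes5, Vim, Nes, Slc1a3 and Fabp7. They were taken by symbol from the 17420 genes of the deposited expression table. All 10 were present. A gene was tested where each of the 4 group means exceeded 1, which 5086 genes met, all 10 among them.

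Radial glia are the neural stem cells of the embryonic cortex. Their cell bodies line the ventricle, where they divide, and their long fibers guide newborn neurons to the cortical plate. Notch signaling keeps radial glia in the stem cell state by way of the repressors Hes1 and Hes5, while cells that leave this state become intermediate progenitors or neurons. Late in gestation many radial glia turn to making glia, and some of their genes are shared with astrocytes.

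RNA was measured in the dissected hippocampus and neocortex of 24 Sprague-Dawley rat pups on embryonic day 18, with 6 pups in each of 4 maternal treatment groups and 3 pups from each of 2 litters per group. The dams of the Saline group were the controls. MAM (methylazoxymethanol acetate, a DNA-alkylating agent) at 22 mg/kg, Poly I:C (a synthetic double-stranded RNA that mimics viral infection) at 7.5 mg/kg, or saline was injected intraperitoneally on gestational day 17, and tissue was taken 18 hours later. Low Protein dams received a diet with 6.1% protein from gestational day 11, and control dams a diet with 20.3% protein. The sources used here do not say which diet was fed to dams given MAM or Poly I:C, or whether Low Protein dams were injected. Treatments were given to dams, so the pups of 1 litter share a dam, and with 2 litters per group a treatment and its dams are hard to tell apart. The 3 comparisons with Saline share the same 6 Saline pups and are not independent of each other.

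Values are normalized read counts (TPM, as the authors name the unit), which sum to 70350.1 in every pup. They are scaled by the genomic span of a gene, introns included. The estimated depth was between 24.3 and 62.9 M (megareads) per pup. At this depth the shortest supply of reads was for Hes1, with an estimated 198 to 698 reads per pup, while Vim had 14849 to 45223. The summed value of 15 neuron genes was 451 to 554 in Saline. The summed value of 4 thalamic genes was 0.887 to 3.64 in Saline. The summed value of 6 choroid plexus genes was 126 to 186 in Saline, 131 to 213 in Low Protein pups, 57.6 to 212 in MAM pups and 33.3 to 250 in Poly I:C pups. The part of that tissue in the values of the 10 genes was not tested.

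A single pup stood apart. Saline 2.1, a pup of the second Saline litter, was below all 5 other Saline pups in 5 of the 10 genes (Pax6, Hes1, Fabp7, Hopx and Lhx2), above them in 2 (Sox2 and Hes5) and within their range in 3. Other Saline pups were often the extreme as well. Saline 2.3 was the lowest in 4 of the 10 genes, and Saline 2.2 the highest in Pax6, Hes1, Vim, Nes and Lhx2. Saline 2.1 differed from them in the size of its gaps, widest in Lhx2 and Hopx. The Lhx2 value of Saline 2.1 was 3.57 against 5.84 to 6.84 in the other Saline pups, and its Hopx value was 1.10 against 1.75 to 2.19. In the same pup the summed value of 13 genes of the ventral telencephalon was 112, against 53.0 to 71.2 in the other Saline pups. Its Nkx2-1, which marks the medial ganglionic eminence, was 9.74 against 1.79 to 4.93, and its Dlx1, a gene of the ganglionic eminences, was 44.8 against 26.1 to 31.5. Other lists stood apart in it as well. The summed value of 6 hippocampus genes was 20.8 against 5.24 to 10.9, that of 4 thalamic genes 3.64 against 0.887 to 2.25, and that of 7 oligodendrocyte lineage genes 29.9 against 16.3 to 22.2. The 15 neuron genes summed to 451 against 500.2 to 554, and Neurod6, a factor of cortical projection neurons, was 46.8 against 79.9 to 119.7. Neurod2 was 50.8 against 81.1 to 107, and Dcx and Map2 were also below the other Saline pups. Not all neuron genes were low in this pup: Tubb3, Stmn2, Mapt and Gap43 lay within the range of the others, and Nefl lay above it. Its estimated depth, 26.6 M reads, lay near the lowest of the Saline pups (26.5 M). The pup was kept. Limma comparisons of the 10 genes that passed with or without it are given both ways, a choice made after its values were seen. Litter differences and some exact permutation tests are given with all 6 Saline pups only.

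**Figure D1:**
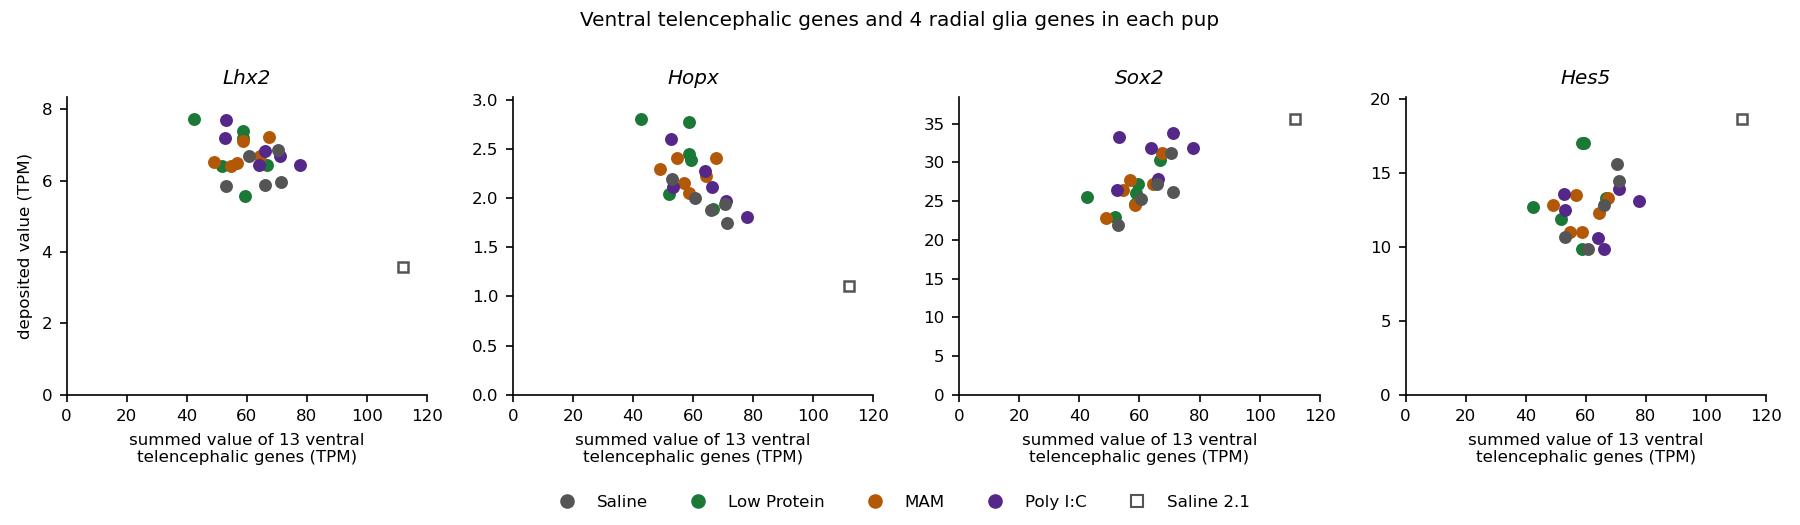
The y axes show the deposited value (TPM) of Lhx2, Hopx, Sox2 and Hes5 in each of the 24 pups, and the x axes the summed value (TPM) of 13 ventral telencephalic genes, with groups in colors and Saline 2.1 as an open square. Saline 2.1 lies alone at a summed value of 112, lowest in Lhx2 (3.57) and Hopx (1.10) and highest in Sox2 (35.7) and Hes5 (18.7).

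Hes1 and Hes5 are direct targets of Notch, whose DNA-binding partner RBPJ recognizes the letters TGGGAA. The 250 bases upstream of both start sites are shown because these are the members through which Notch acts, and each window holds that word 2 times. The sequences are from RefSeq on the GRCr8 assembly, written 5′ to 3′ on the strand of the gene, with TGGGAA or its reverse complement TTCCCA in capitals. Hes1 lies on the minus strand (chr11:84213046-84213295) and Hes5 on the plus strand (chr5:170804327-170804576).
Hes1: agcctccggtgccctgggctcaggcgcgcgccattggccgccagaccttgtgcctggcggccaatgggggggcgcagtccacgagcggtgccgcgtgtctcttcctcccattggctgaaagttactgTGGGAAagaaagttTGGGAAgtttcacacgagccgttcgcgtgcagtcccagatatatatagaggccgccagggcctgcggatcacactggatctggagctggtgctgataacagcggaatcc
Hes5: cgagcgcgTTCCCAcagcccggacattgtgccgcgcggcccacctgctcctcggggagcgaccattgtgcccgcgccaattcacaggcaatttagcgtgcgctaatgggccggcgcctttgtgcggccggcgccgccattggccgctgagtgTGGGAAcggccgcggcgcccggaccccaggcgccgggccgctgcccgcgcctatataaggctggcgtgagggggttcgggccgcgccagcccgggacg
The matches begin 123 and 109 bases before the start site in Hes1, and 242 and 98 bases before it in Hes5. Of the other members, Pax6 and Slc1a3 have the word in their upstream windows, so that 4 of the 10 genes hold it on either strand. Counted by window, 6 of the 12 windows of these genes hold it, and the overlapping windows of Slc1a3 share a match. Of all 33469 upstream windows of this length, from 27457 genes, 22.1% hold it. A match is a description of the letters and was not tested for binding.

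In Saline the mean value of the 10 genes ran from 66.9 ± 4.87 (SD, n = 6 pups) for Fabp7 through 55.8 ± 5.00 for Vim, 27.9 ± 4.84 for Sox2, 13.8 ± 1.89 for Nes, 13.7 ± 3.28 for Hes5, 5.80 ± 1.18 for Lhx2, 3.11 ± 0.484 for Hes1, 2.02 ± 0.133 for Slc1a3 and 1.81 ± 0.376 for Hopx to 1.06 ± 0.166 for Pax6. This order is of values per genomic span, so a long gene such as Slc1a3 stands low in it for the same number of transcripts. The Saline ranges of Fabp7 and Vim, Nes and Hes5, Lhx2 and Hes1, Slc1a3 and Hopx, and Hopx and Pax6 overlapped, and those of the other 4 neighboring pairs did not. Fabp7 and Vim were above 97.5% and 97.0% of the genes tested, while Pax6 was above 0.610% of them.

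The comparison with Saline asks whether each prenatal treatment changed the expression of these genes. At an unadjusted p under 0.05 (limma), 2 of the 10 genes were higher in Low Protein (Hopx and Lhx2), 3 in MAM (Hopx, Hes1 and Lhx2) and 4 in Poly I:C (Pax6, Lhx2, Hes1 and Hopx). None was lower. A further limit on the size of a change, a log fold change of 0.6, was part of the study's criteria for Low Protein and Poly I:C but not for MAM. Read as log2, it was met by 0 of the 10 genes in any comparison of the present fit. The paper nonetheless names Lhx2 among the genes altered in every model and describes it as upregulated. Its calls came from the gene test of Partek, and why they differ was not tested. Of all 5086 genes tested, 3.66% were higher at an unadjusted p under 0.05 (limma) in Low Protein pups, 3.07% in MAM pups and 4.25% in Poly I:C. In either direction 8.24%, 11.2% and 9.95% passed. With adjustment over all genes tested, 0 of the 10 genes passed limma in any comparison, and the lowest adjusted p was 0.455, 0.416 and 0.381 respectively. Over all genes tested, 0%, 0.0197% and 0% passed with adjustment. The median log2 fold change of the 10 genes was 0.08, -0.01 and 0.15 respectively, against -0.01, -0.05 and 0.01 over all genes tested. In bulk tissue, fewer cells of a type and less RNA per cell cannot be told apart.

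These counts depended on Saline 2.1. Without that pup, 1 gene was higher in Low Protein (Hopx), 1 higher and 1 lower in MAM (Hopx and Fabp7) and 1 higher in Poly I:C (Sox2). Of all genes tested without it, 2.89% were higher in Low Protein pups, 3.95% higher and 13.0% lower in MAM pups, and 2.69% higher in Poly I:C pups. By exact two-sided permutation tests of 6 pups against 6, for which the smallest possible p is 0.00216, 1, 4 and 1 of the 10 genes were under 0.05, where 9.95%, 14.0% and 7.83% of all genes tested were. Without Saline 2.1 the exact test counts of the 10 genes were 1, 3 and 1. For 0 of the 10 genes did the values of a treatment group and Saline fail to overlap, which was so for 0.747%, 0.786% and 0.492% of all genes tested.

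**Figure D2:**
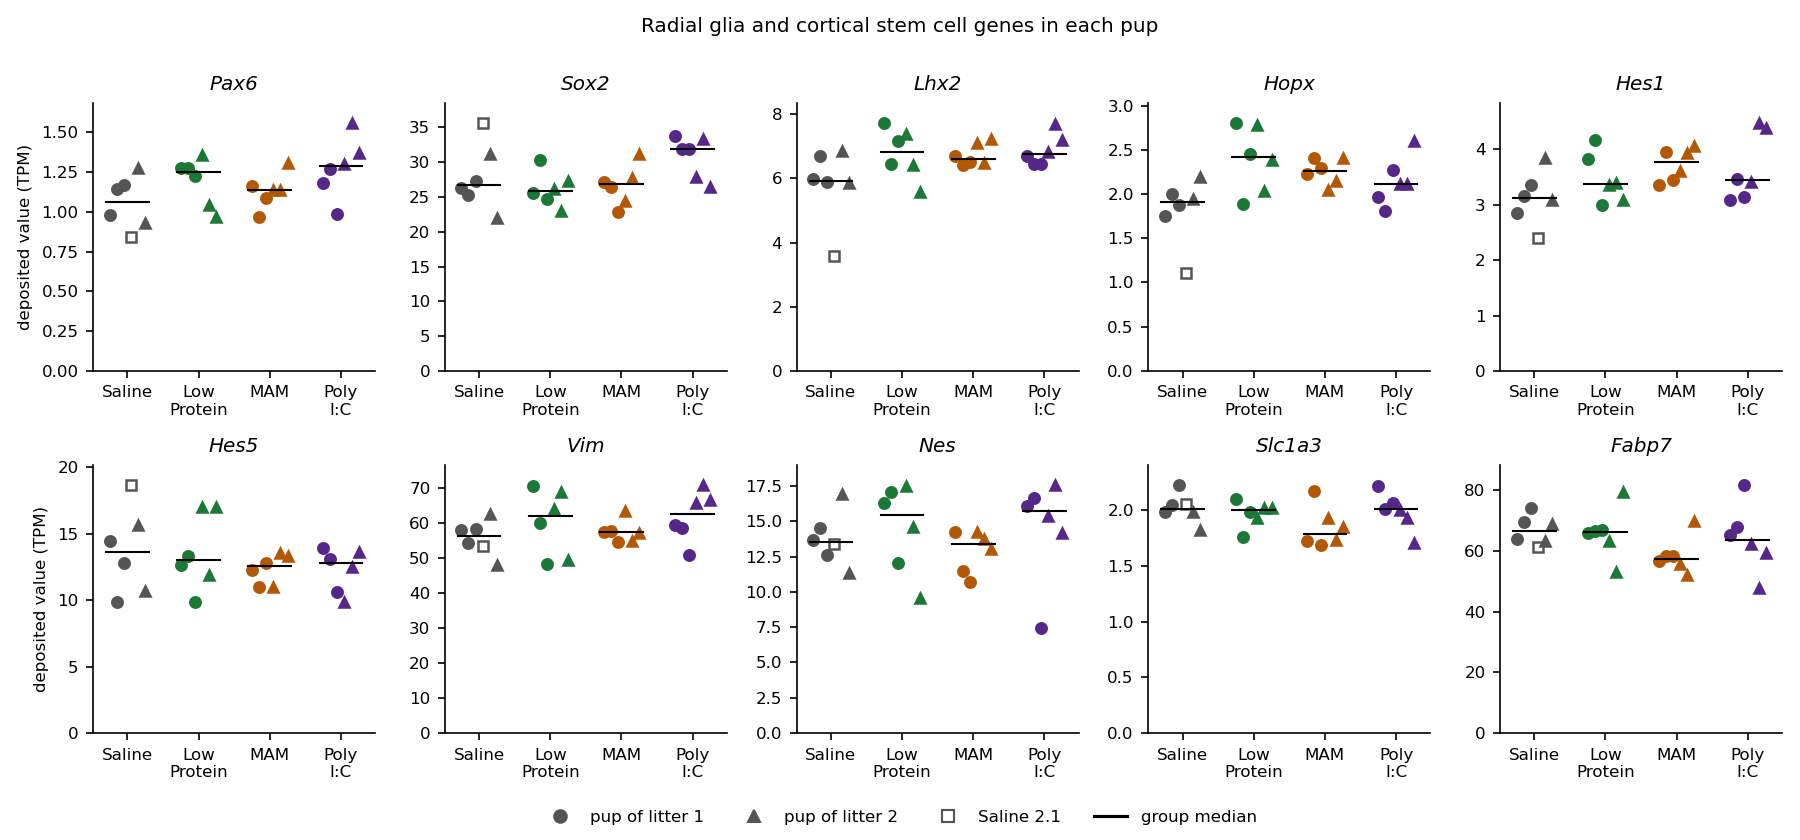
Each panel shows the deposited value (TPM, y axis from 0) of 1 gene in every pup of the 4 groups (x axis), with circles for pups of litter 1, triangles for litter 2, an open square for Saline 2.1 and a line at the group median. Lhx2 and Hopx have their lowest value in Saline 2.1 (3.57 and 1.10), and every gene overlaps between Saline and each treatment.

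Among the transcription factors, Hopx encodes a homeodomain protein that does not bind DNA itself and marks outer radial glia in primates. Its lowest, median and highest values were 1.10, 1.91 and 2.19 in Saline. They were 1.89, 2.42 and 2.81 in Low Protein pups, 2.05, 2.26 and 2.41 in MAM pups, and 1.81, 2.11 and 2.60 in Poly I:C pups. In Low Protein and in MAM 4 of 6 pups exceeded every Saline pup, and in Poly I:C 2 of 6 did. The log2 fold change against Saline was 0.42 ± 0.13 (SE) in Low Protein (limma unadjusted p = 0.00304, adjusted p = 0.455, exact permutation p = 0.0195). In MAM it was 0.35 ± 0.13 (limma unadjusted p = 0.0115, adjusted p = 0.416, exact permutation p = 0.00649). In Poly I:C it was 0.27 ± 0.13 (limma unadjusted p = 0.0452, adjusted p = 0.485, exact permutation p = 0.0996). Without Saline 2.1 the values were 0.28, 0.21 and 0.13 (limma unadjusted p = 0.00815, 0.0408 and 0.189, exact permutation p = 0.0433, 0.0130 and 0.203), so that the Poly I:C difference no longer passed. Hopx was also the only 1 of the 10 genes under 0.05 in the limma test for any difference among the 4 groups (unadjusted p = 0.0167, adjusted p = 0.211), a test that 16.4% of all genes tested passed.

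Lhx2, a LIM homeodomain factor that gives cortical progenitors their cortical identity, had lowest, median and highest values of 3.57, 5.92 and 6.84 in Saline. The same 3 values were 5.58, 6.81 and 7.73 in Low Protein pups, 6.42, 6.61 and 7.22 in MAM pups, and 6.44, 6.76 and 7.70 in Poly I:C pups. All 6 MAM and all 6 Poly I:C pups lay above the Saline median, and 2 of 6 in each lay above every Saline pup. Log2 fold changes in the same order were 0.25, 0.25 and 0.28, each ± 0.11 (limma unadjusted p = 0.0329, 0.0349 and 0.0201, adjusted p = 0.570, 0.418 and 0.393). The exact permutation p was 0.108, 0.0346 and 0.0281. Without Saline 2.1 the log2 fold changes were 0.12, 0.11 and 0.14, and none passed (limma unadjusted p = 0.125, 0.135 and 0.0653, exact permutation p = 0.221, 0.0758 and 0.0649). Hopx and Lhx2 were among the 10 genes of the 5086 tested, 0.197%, that were higher at an unadjusted p under 0.05 in all 3 comparisons, which share their Saline pups.

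Pax6, the paired-box factor that promotes neurogenesis from cortical radial glia, ranged from 0.840 to 1.28 in Saline with a median of 1.06. Its lowest, median and highest values were 0.968, 1.25 and 1.36 in Low Protein pups, 0.968, 1.14 and 1.31 in MAM pups, and 0.986, 1.29 and 1.56 in Poly I:C pups. In Poly I:C 3 of 6 pups were above every Saline pup. The log2 fold change there was 0.28 ± 0.11 (limma unadjusted p = 0.0183, adjusted p = 0.381, exact permutation p = 0.0519), and without Saline 2.1 it was 0.21 (limma unadjusted p = 0.0612, exact permutation p = 0.117). The differences of 0.18 in Low Protein and 0.11 in MAM did not pass (limma unadjusted p = 0.117 and 0.323).

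Sox2, an HMG-box factor that maintains neural stem cells, had its highest Saline value in Saline 2.1. Its lowest, median and highest values were 21.9, 26.7 and 35.7 in Saline, 22.9, 25.8 and 30.3 in Low Protein pups, 22.9, 26.8 and 31.2 in MAM pups, and 26.4, 31.8 and 33.8 in Poly I:C pups. No comparison with Saline passed, with log2 fold changes of -0.08, -0.06 and 0.15 ± 0.10 (limma unadjusted p = 0.396, 0.561 and 0.125). Without Saline 2.1 the Poly I:C value was 0.23 ± 0.09 and passed (limma unadjusted p = 0.0187, adjusted p = 0.576, exact permutation p = 0.0455). Between treatments, which do not involve the Saline pups, Sox2 was lower in Low Protein than in Poly I:C by -0.24 on the log2 scale (limma unadjusted p = 0.0218, adjusted p = 0.897, exact permutation p = 0.0173), with 4 of 6 Low Protein pups below every Poly I:C pup. It was lower in MAM than in Poly I:C by -0.21 (limma unadjusted p = 0.0394, adjusted p = 0.189, exact permutation p = 0.0346). Sox2 was the only 1 of the 10 genes under 0.05 in either of these comparisons, in which 5.31% and 23.1% of all genes tested were, and 0 of the 10 were under 0.05 by limma between Low Protein and MAM, where 11.0% of all genes tested were.

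Hes1 and Hes5 are the basic helix-loop-helix repressors whose upstream sequences are printed above. Hes1 had lowest, median and highest values of 2.395, 3.12 and 3.83 in Saline, 2.99, 3.37 and 4.16 in Low Protein pups, 3.35, 3.77 and 4.06 in MAM pups, and 3.09, 3.44 and 4.48 in Poly I:C pups. All 6 MAM pups were above the Saline median and 3 were above every Saline pup. The log2 fold change of Hes1 was 0.27 ± 0.11 in MAM (limma unadjusted p = 0.0193, adjusted p = 0.416, exact permutation p = 0.0216). In Poly I:C it was 0.23 ± 0.11 (limma unadjusted p = 0.0406, adjusted p = 0.471, exact permutation p = 0.121), and in Low Protein 0.16 (limma unadjusted p = 0.148). Without Saline 2.1 the MAM and Poly I:C values were 0.20 and 0.16 and neither passed limma (unadjusted p = 0.0691 and 0.135), while the exact permutation p in MAM was 0.0433.

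Hes5 had values of 9.83 to 18.7 in Saline, 9.84 to 17.0 in Low Protein pups, 11.0 to 13.5 in MAM pups and 9.85 to 13.9 in Poly I:C pups. Its highest Saline value was again that of Saline 2.1. The log2 fold changes were 0.00, -0.12 and -0.14 ± 0.14, with 95% intervals of -0.29 to 0.29, -0.41 to 0.17 and -0.43 to 0.16, and none passed (limma unadjusted p = 0.995, 0.398 and 0.346). The 2 Notch repressors thus had different estimates in MAM pups and Poly I:C, a difference between genes that was not tested.

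Vim and Nes encode vimentin and nestin, the intermediate filament proteins of the radial fiber. Vim had values of 48.1 to 62.7 in Saline, 48.3 to 70.6 in Low Protein pups, 54.4 to 63.5 in MAM pups and 50.8 to 70.9 in Poly I:C pups. Its log2 fold changes of 0.10, 0.05 and 0.15 ± 0.09 did not pass (limma unadjusted p = 0.294, 0.623 and 0.123). Nes ranged from 11.4 to 16.9 in Saline, 9.57 to 17.5 in Low Protein pups, 10.7 to 14.2 in MAM pups and 7.46 to 17.6 in Poly I:C pups. Its log2 fold changes were 0.06, -0.09 and 0.04 ± 0.17 (limma unadjusted p = 0.743, 0.597 and 0.812). The 95% intervals for Nes were the widest of the 10 genes, -0.29 to 0.40, -0.44 to 0.26 and -0.31 to 0.39, so differences inside them are not excluded. The lowest Poly I:C value, 7.46, was that of Poly I:C 1.3, and without this pup the Poly I:C log2 fold change was 0.22.

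Slc1a3 and Fabp7 are radial glia genes that astrocytes also use. Slc1a3, the glutamate transporter GLAST, varied least between pups of Saline, from 1.82 to 2.23, and was 1.76 to 2.10 in Low Protein pups, 1.69 to 2.17 in MAM pups and 1.71 to 2.22 in Poly I:C pups. In MAM 3 of 6 pups lay below every Saline pup, and the log2 fold change of -0.13 ± 0.07 did not pass (limma unadjusted p = 0.0627, exact permutation p = 0.0866). The values in Low Protein and Poly I:C were -0.04 and -0.02 (limma unadjusted p = 0.594 and 0.742).

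Fabp7, the brain lipid-binding protein, had lowest, median and highest values of 61.2, 66.4 and 74.2 in Saline, 53.1, 66.3 and 79.5 in Low Protein pups, 52.2, 57.4 and 69.8 in MAM pups, and 47.7, 63.8 and 81.8 in Poly I:C pups. In MAM 5 of 6 pups lay below every Saline pup. The log2 fold change in MAM was -0.20 ± 0.10 (limma unadjusted p = 0.0609, adjusted p = 0.440), and the exact permutation p was 0.0325. Without Saline 2.1, itself the lowest Saline pup, the MAM value was -0.22 and passed limma (unadjusted p = 0.0469, adjusted p = 0.288, exact permutation p = 0.0260). The values in Low Protein and Poly I:C were -0.03 and -0.08 (limma unadjusted p = 0.786 and 0.439).

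**Figure D3:**
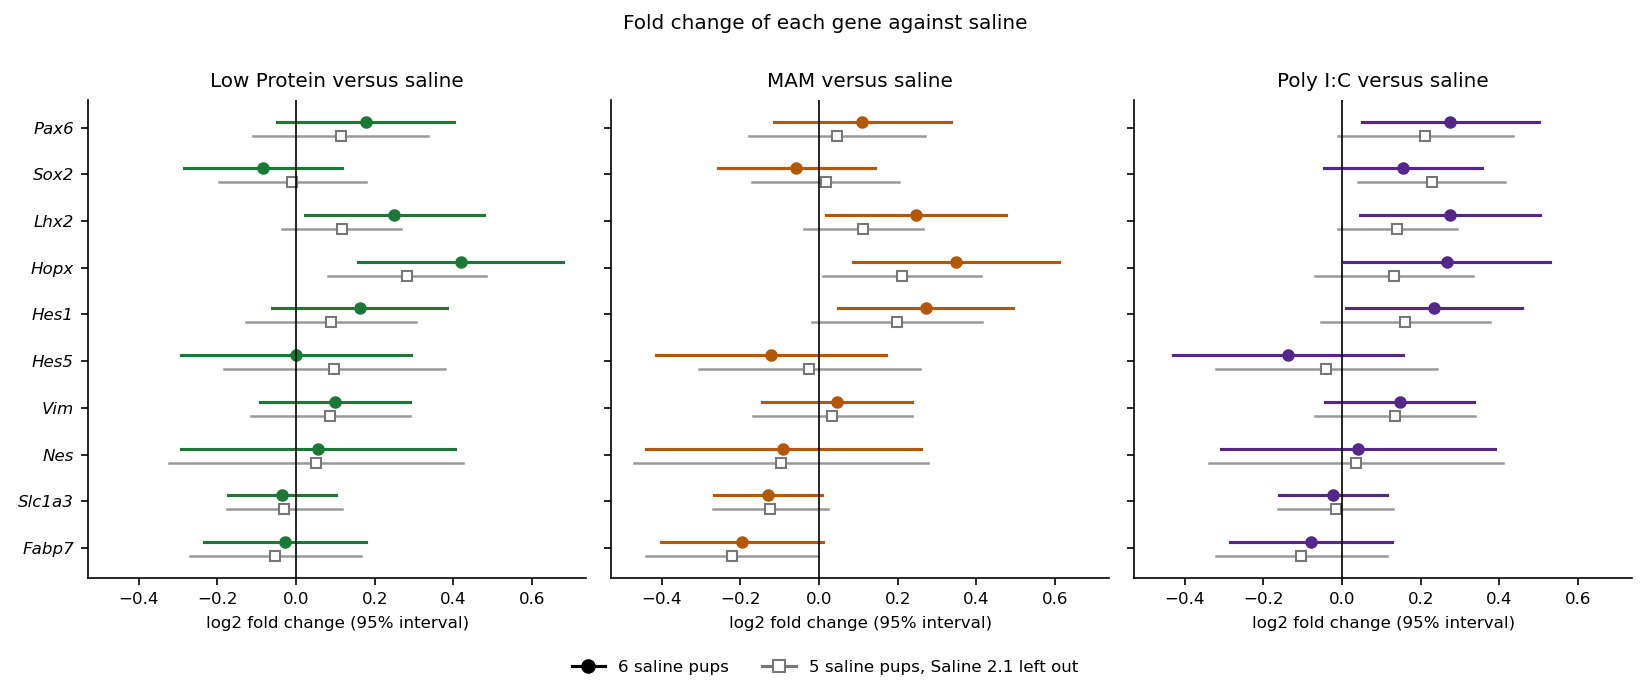
Points show the log2 fold change (x axis) of each gene against Saline in the 3 treatments, with 95% intervals as bars, from all 6 Saline pups (filled circles) and from 5 Saline pups without Saline 2.1 (open squares). Without that pup Lhx2 moves from 0.25, 0.25 and 0.28 to 0.12, 0.11 and 0.14, while Vim, Nes and Slc1a3 stay close to their first estimates.

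The litters of the Poly I:C group differed in these genes. In 5 of the 10 genes the 3 pups of one Poly I:C litter lay wholly above the 3 pups of the other, against 19.0% of all genes tested. Vim was 65.6 to 70.9 in litter 2 and 50.8 to 59.3 in litter 1. Pax6 was 1.30 to 1.56 in litter 2 and 0.986 to 1.27 in litter 1. These genes, with Lhx2, were higher in litter 2, while Fabp7 (47.7 to 62.4 in litter 2, 65.2 to 81.8 in litter 1) and Slc1a3 (1.71 to 2.00 and 2.01 to 2.22) were lower. In Saline, Low Protein and MAM 0 of the 10 genes had litters that did not overlap, where 4.15%, 20.6% and 6.25% of all genes tested had. The Poly I:C difference of Hes1 was 0.40 on the log2 scale for litter 2 and 0.07 for litter 1, and that of Pax6 was 0.43 and 0.12. The differences of Hopx in Low Protein were close in both litters, 0.41 and 0.43, as were those in MAM, 0.38 and 0.31.

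**Figure D4:**
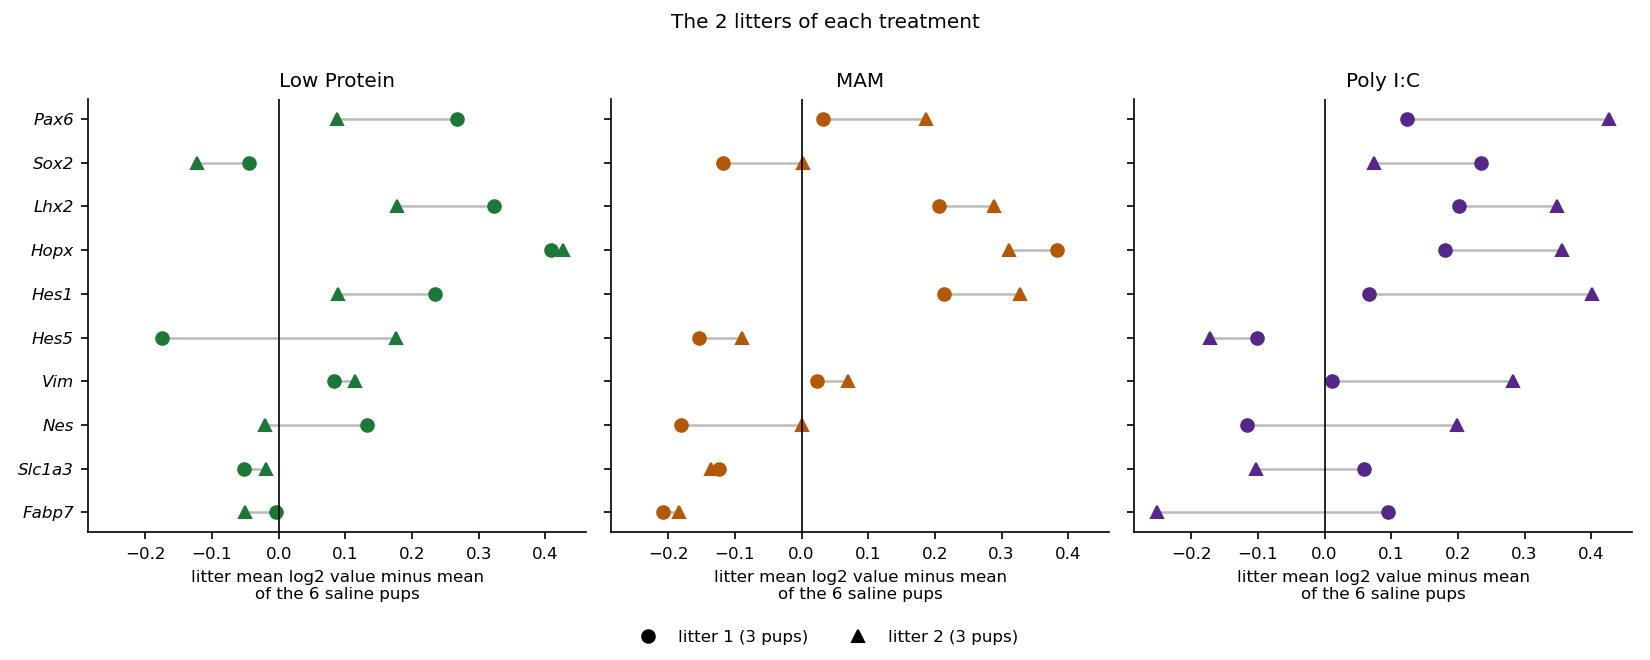
Points show the mean log2 value of each litter of 3 pups minus the mean of the 6 Saline pups (x axis) for the 10 genes (y axis) in Low Protein pups, MAM and Poly I:C, with circles for litter 1 and triangles for litter 2. In Poly I:C, Fabp7 is at 0.095 in litter 1 and -0.25 in litter 2 and Hes1 at 0.07 and 0.40, and in Low Protein Hes5 is at 0.18 in litter 2 and -0.18 in litter 1.

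Correlations between the 10 genes had both signs. After the group means were removed, the Pearson correlations of the 45 pairs over the 24 pups ran from -0.62 to 0.74 with a median of 0.04, and 24 were above 0. These pups share the scaling of their libraries to a common total, and the correlations are a description. Pax6 with Lhx2 (0.73), Vim with Nes (0.73) and Pax6 with Nes (0.70) were high, and they were 0.77, 0.73 and 0.75 without Saline 2.1. Fabp7 ran against the filaments, at -0.62 with Vim and -0.61 with Nes, and at -0.65 and -0.63 without that pup. Litter means were not removed, and Poly I:C litter 2 was higher in Vim and lower in Fabp7 than litter 1. Poly I:C 1.3 had the highest Fabp7 (81.8) and the lowest Nes (7.46) of all pups. The part of these litters and of this pup in the correlations was not tested. The correlation of Hopx with Lhx2 (0.74) was 0.39 without Saline 2.1, and that of Sox2 with Lhx2 (-0.38) was 0.09. Of the other genes tested, those closest to the mean log2 value of the 10 genes were Efnb1 (0.84), Neurog1 (0.81), Dmrta2 (0.80), Ubtf (0.80) and Paf1 (0.80), over 24 pups.

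Other genes of the Notch pathway were less often tested, because 18 of the 20 listed were in the table and 8 had a mean above 1 in every group. Of these 8, 1 was higher in MAM at an unadjusted p under 0.05 (limma) and 0 passed in Low Protein or Poly I:C. It was Hey1, a repressor related to Hes1, at 1.66 ± 0.204 (SD, n = 6) in Saline and 1.97 ± 0.255 in MAM. Its log2 fold change was 0.25 ± 0.10 (limma unadjusted p = 0.0179, adjusted p = 0.416, exact permutation p = 0.0346), and 0.26 without Saline 2.1 (limma unadjusted p = 0.0214). The ligand Dll1, the receptor Notch1 and the target Nrarp did not pass in any comparison. The median log2 fold change of the 8 genes was -0.06 in Low Protein pups, 0.01 in MAM pups and 0.06 in Poly I:C. Over all genes tested the medians were -0.01, -0.05 and 0.01. By the same limma limit, 3.07% of all genes tested were higher in MAM pups, and 3.95% without Saline 2.1. Genes called in either direction made up 8.24% of all tested for Low Protein, 11.2% for MAM and 9.95% for Poly I:C.

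A further 24 radial glia and cortical stem cell genes were listed, of which 21 were in the table and 14 were tested. In Low Protein 1 was higher, Emx2, a homeobox gene of the dorsal telencephalon, with a log2 fold change of 0.26 ± 0.10 (limma unadjusted p = 0.0200, adjusted p = 0.543, exact permutation p = 0.0693). In MAM 1 was lower, Ttyh1, a membrane protein of neural stem cells, at -0.16 ± 0.08 (limma unadjusted p = 0.0477, adjusted p = 0.437, exact permutation p = 0.0779). In Poly I:C 1 was higher, Sox9, a stem cell and gliogenic factor, at 0.27 ± 0.11 (limma unadjusted p = 0.0186, adjusted p = 0.384, exact permutation p = 0.0152). The Emx2 value of Saline 2.1 was 2.10, below the 2.70 to 3.52 of the other Saline pups. Without that pup Emx2 was at 0.16 and Ttyh1 at -0.12, and neither passed (limma unadjusted p = 0.0801 and 0.121), while Sox9 was at 0.28 (limma unadjusted p = 0.0215). Mt3, a metallothionein of astrocytes and neurons, was then higher in MAM at 0.24 (limma unadjusted p = 0.0431), so that the MAM count of the list changed from 1 lower to 1 higher. The median log2 fold change of the 14 genes was -0.02, 0.00 and 0.05, against -0.01, -0.05 and 0.01 over all genes tested. Of all genes tested, 3.66% were higher in Low Protein, 8.18% lower in MAM and 4.25% higher in Poly I:C. Without Saline 2.1, 3.95% were higher in MAM.

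**Figure D5:**
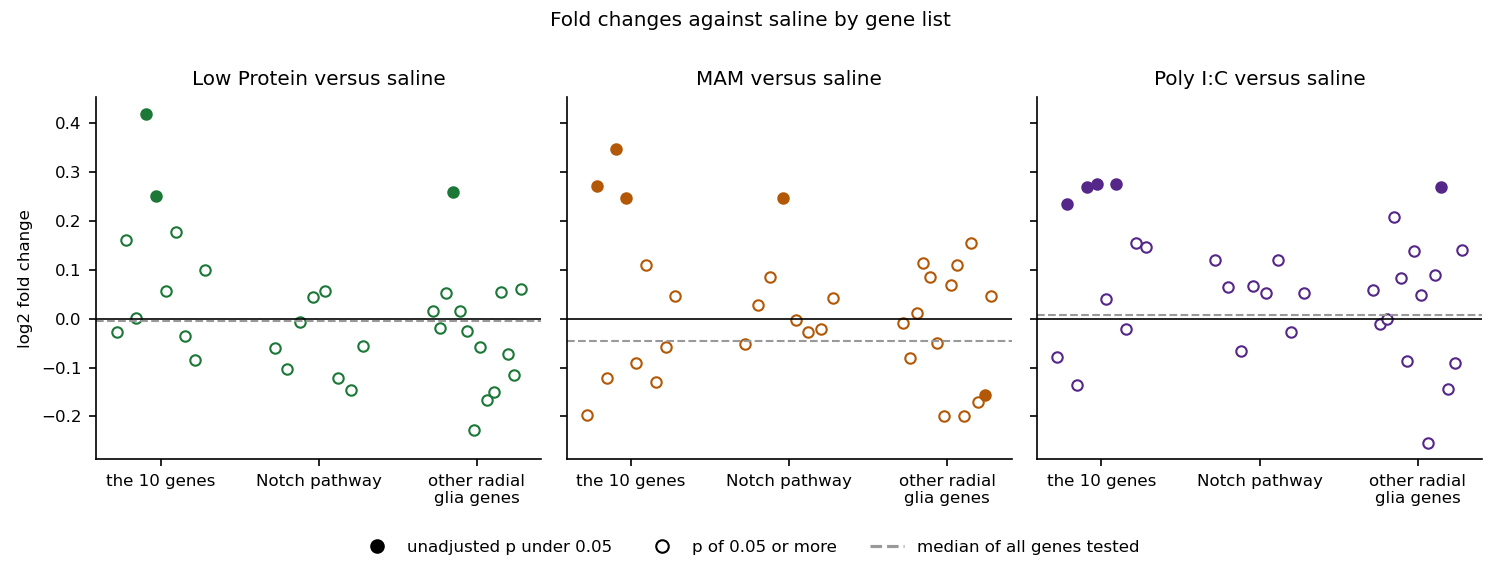
Each point is the log2 fold change against Saline (y axis) of 1 gene of the 10 described, of the 8 tested Notch pathway genes or of the 14 other tested radial glia genes (x axis), filled where the limma unadjusted p is under 0.05, with a dashed line at the median of all genes tested. The 10 genes have 2, 3 and 4 filled points in Low Protein pups, MAM and Poly I:C, the Notch genes 0, 1 and 0, and the other radial glia genes 1 in each.

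Genes of the ventral telencephalon, the neighbor of the dissected cortex, were also listed. The paper treats several of them as genes of interneurons, which migrate from there into cortex and hippocampus. It also reports lower Dlx1, Dlx5 and Lhx6 in all 3 models. By qPCR it found Lhx6 lower in all 3, and Dlx1, Dlx5 and Nkx2.1 lower in Low Protein and MAM. Whether the values of the ventral genes here reflect ventral tissue or interneurons within the cortex was not tested. Of the 9 ventral genes tested, 4 were lower in Low Protein (Dlx1, Dlx5, Gad1 and Lhx6), 3 in MAM (Dlx1, Gad1 and Lhx6) and 0 in Poly I:C by limma at an unadjusted p under 0.05, where 4.58%, 8.18% and 5.70% of all genes tested were lower. Without Saline 2.1 the counts were 1 (Lhx6), 0 and 0, with 2.89%, 13.0% and 4.01% of all genes tested. The genes that the paper reports as lower in Poly I:C thus did not pass here, and why was not tested. The summed value of the 13 ventral genes in the table was 53.0 to 112 in Saline, 42.6 to 66.8 in Low Protein pups, 49.0 to 67.5 in MAM pups and 52.6 to 77.8 in Poly I:C pups. Among the markers of other cell types, 2 of 4 tested microglia genes, the complement genes C1qa and C1qb, were higher in MAM (log2 fold changes of 0.39 and 0.33, limma unadjusted p = 0.0263 and 0.0326), and both also passed without Saline 2.1. The summed value of the 7 microglia genes was 14.5 to 18.9 in MAM against 11.8 to 14.8 in Saline. Of 2 tested oligodendrocyte lineage genes, Olig1 was lower in Low Protein (-0.55, limma unadjusted p = 0.00727), and also without Saline 2.1. Of 4 tested blood genes, Ahsp, a hemoglobin chaperone, was higher in Low Protein (0.44, limma unadjusted p = 0.0457), but 0 were without that pup. None of these genes passed after adjustment. Of all genes tested, 3.07% were higher in MAM, and 3.95% without Saline 2.1. In Low Protein 3.66% were higher and 4.58% lower, and without Saline 2.1 each share was 2.89%. The part of these tissues and cells in the differences of the 10 genes was not tested.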

How the data were processed

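The authors trimmed paired reads by quality, aligned them to rn6 with STAR 2.4.1d, quantified RefSeq transcripts in Partek Flow and deposited TPM values that include an offset of 0.0001, without counts. Log2 TPM of all 24 pups was fitted with limma 3.58.1 (R 4.3.3) in 1 model of the 4 groups, over the 5086 genes whose group means all exceeded 1, with Benjamini-Hochberg adjustment over those genes. Single genes were also compared by exact permutation. The fits were checked on simulated data. A p-value measures the spread between pups, not between dams.

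The first part of a pup's number (2 in Saline 2.1) was read as its litter. Depth was estimated from the step that 1 read makes in low values multiplied by span (GRCr8, 86.7% of gene names). For each pup, 46.0 to 54.1% of low values came within 0.05 of a whole multiple, so depth is approximate. Gene names that had become dates (26) or were duplicated (2) concern none of the 10 genes.

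The 10 genes and the gene lists were chosen with earlier results of these data known. Named are the 10 genes, up to 4 genes with the smallest p under 0.05 per comparison in the Notch and further radial glia lists, markers of other lists, and the 5 genes closest to the mean of the 10. Dll1, Notch1, Nrarp, Mt3, Ahsp, Neurod6 and the other neuron genes given for Saline 2.1, and the genes under other observations were named after their values were seen. The 46 alternatives concern filters, pseudocounts, scaling, litters, a block, the variance model and left-out pups or litters. Scaling without Saline 2.1 was added after the data were seen.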

Additional observations from a re-analysis of the deposited data

Results flagged for a closer look

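The lowest and highest pup of each group were compared with the rest on the log2 scale by Dixon's ratio, the gap to the nearest other pup over the range of the group, in 40 groups of 6 pups (10 genes in 4 groups). At the limit of 0.625 chance flags about 1 in 20 groups. In 3 groups the ratio was above it. Lhx2 in Saline had a ratio of 0.756, with Saline 2.1 at 1.83 on the log2 scale and the next lowest pup at 2.55. Hopx in Saline had a ratio of 0.671, with Saline 2.1 at 0.14 and the next lowest at 0.81. Nes in Poly I:C had a ratio of 0.751, with pup 1.3 at 2.90 (7.46 TPM) and the next lowest at 3.83. Without Poly I:C 1.3 the log2 fold change of Nes was 0.22.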

How the results depend on the processing

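Over 46 alternative settings, the Low Protein difference of Hopx passed in all, at 0.28 to 0.50. Not every setting can move an estimate. Leaving out a pup or litter of a group not compared, or changing the variance model, can move only its p-value. The MAM difference of Hopx lost its call in 1, and the Poly I:C differences of Hopx and Hes1 in 20 and 14. Hes1 in MAM lost it in 3 and Pax6 in Poly I:C in 4. Calls were gained by Fabp7 in MAM in 11, Slc1a3 in MAM in 4, Sox2 in Poly I:C in 4, Pax6 and Hes1 in Low Protein in 3 and 1, and Vim and Fabp7 in Poly I:C in 2 and 1. Lhx2 lost its call in 9, 8 and 5 settings and reversed in none. The number of the 10 genes under 0.05 by limma (2, 3 and 4) was 1 for Low Protein and 1 for Poly I:C with only the 12 pups compared, 2 in Poly I:C with no filter on low values, 1 in Low Protein with median of ratios or upper quartile scaling without Saline 2.1, and 2 in Poly I:C with the latter. The count for any difference among the 4 groups (1) was 3 with median of ratios, 2 with upper quartile and 2 with median of ratios without Saline 2.1. Leaving out 1 pup or litter gave 1 to 4 genes in Low Protein, 1 to 4 in MAM, 0 (without Poly I:C litter 2) to 6 (without Poly I:C litter 1) in Poly I:C, and 1 to 4 for any difference. Calls over all 5086 genes tested moved as well. In Poly I:C they were 228 without Poly I:C litter 2 and 964 without litter 1, against 506 with all pups. The cause was not tested.

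No estimate passed limma with its sign changed. With median of ratios without Saline 2.1, Sox2 was at 0.0079 for Low Protein and 0.063 for MAM, and Hes5 was at 0.021 for MAM. With upper quartile without that pup, Sox2 was at 0.048 and Hes5 at 0.0059 for MAM. Leaving out 1 pup or litter, Sox2 ranged from -0.13 to 0.017 in MAM. Hes5 ranged from -0.18 to 0.18 in Low Protein and from -0.25 to 0.0074 in MAM. Nes ranged from -0.021 to 0.17 for Low Protein, from -0.18 to 0.00073 for MAM and from -0.12 to 0.22 for Poly I:C. Slc1a3 ranged from -0.082 to 0.011 for Low Protein and from -0.10 to 0.059 for Poly I:C. Fabp7 ranged from -0.083 to 0.033 for Low Protein and from -0.25 (without Poly I:C litter 1, limma unadjusted p = 0.0264) to 0.095 for Poly I:C. The cause was not tested.

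Pups that share a number across groups did not deviate together throughout (22 of 36 pairs above a correlation of 0.1, lowest -0.42). Their median correlation was 0.16, against -0.02 for pups of different groups and different numbers, and 12 of 24 pups correlated best with their own number. The main fit does not use the number to pair pups, and what pups of the same number share was not tested. With a replicate block, 2, 4 and 4 of the 10 genes were under 0.05, Fabp7 in MAM being the addition (-0.20, limma unadjusted p = 0.0165), and the genes under 0.05 among all tested were 596, 794 and 652 in place of 419, 572 and 506. Litter means gave 262, 250 and 312, no filter gave 1024, 1387 and 1298 of 15122 genes, and a mean above 0.1 gave 770, 1049 and 980 of 9879. Over left-out pups and litters they ran from 271 to 530, from 163 to 862 and from 228 to 964. Scaling moved the direction in MAM: 156 of 572 were higher as deposited, 306 of 505 with median of ratios and 279 of 494 with upper quartile.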

Other observations

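Genes of the cells that radial glia produce were listed beside them. Of 5 tested intermediate progenitor genes, 1 was higher in Low Protein (Neurod1), 1 in MAM (Mfng) and 3 in Poly I:C (Neurog1, Gadd45g and Neurod1) at an unadjusted p under 0.05 by limma, and 0 were lower. Neurog1, a proneural factor, had a mean of 1.35 ± 0.449 (SD, n = 6) in Saline and 2.22 ± 0.697 in Poly I:C, a log2 fold change of 0.71 ± 0.23 (limma unadjusted p = 0.00559, adjusted p = 0.304, exact permutation p = 0.0281). Without Saline 2.1 the counts were 0, 1 and 2, and Neurog1 in Poly I:C was at 0.58 (limma unadjusted p = 0.0209, adjusted p = 0.576). Of 14 tested proliferation genes, 5 were higher in MAM (Ccnb1, Cdk1, Birc5, Aurkb and Cdc20, which act at mitosis), 1 in Poly I:C (Pcna) and 0 in Low Protein. Without Saline 2.1 the counts were 5, 2 and 0. Other genes of that list did not pass in MAM without the pup, with Mki67 at -0.07, Top2a at 0.06 and Tyms at -0.09 (limma unadjusted p = 0.676, 0.569 and 0.249). Of 11 tested neuron genes, 1 was lower in each comparison, namely Bcl11b in Low Protein, Nefl in MAM and Mapt in Poly I:C. Without Saline 2.1, 0 were lower in Low Protein, Dcx alone in MAM and Mapt alone in Poly I:C. The Nefl value of Saline 2.1 was 8.46, against 3.80 to 5.76 in the other Saline pups. None of these passed after adjustment. Of all genes tested, 3.66% were higher with Low Protein, 3.07% with MAM and 4.25% with Poly I:C, while 4.58%, 8.18% and 5.70% were lower.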
